A study of Mus musculus with 30 samples.

Results

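The 8 genes described here encode the enzymes by which the liver breaks down histidine (Hal, Uroc1, Amdhd1 and Ftcd) and lysine (Aass, Aldh7a1, Dhtkd1 and Gcdh). They were chosen by name, and all 8 were present among the 14173 genes of the count tables and passed the filter on low counts in each comparison. Liver RNA was measured in 30 male C57BL6/J mice, 6 per diet, with 1 library per mouse. Mice were bought at 9 weeks of age, acclimated for 2 weeks to 20% casein (both casein groups) or to 20% soy (all 3 soy groups), and fed the test diets for 12 weeks until 6 months of age. Livers were taken after a 4 h fast. The Cas-20% diet held 20% casein with 0.57 gm% methionine and 0.41 gm% cysteine, and the Cas-5% diet held 5% casein with 0.15 gm% methionine and 0.1 gm% cysteine. Soy-20% held 20% soy protein with 0.22 gm% of each of these amino acids, and Soy-20% + SAA was the same diet with sulfur amino acids (SAA) added to reach 0.58 gm% methionine and 0.41 gm% cysteine. Soy-10% held 11.5% soy protein with 0.13 gm% of each. Casein and soy restriction therefore differed in how far total protein was lowered, while their sulfur amino acid contents were set to be alike.

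Histidine and lysine are amino acids that mammals cannot make, and the liver holds much of the machinery that degrades the surplus. Histidine ammonia lyase (Hal) removes the amino group of histidine to give urocanate, urocanate hydratase (Uroc1) and imidazolonepropionase (Amdhd1) convert it to formiminoglutamate, and Ftcd passes the formimino group to tetrahydrofolate and leaves glutamate. Lysine enters the saccharopine pathway in mitochondria, where Aass joins lysine to oxoglutarate and splits the product, and Aldh7a1 oxidizes the resulting semialdehyde to aminoadipate. Dhtkd1 is the first component of the complex that decarboxylates oxoadipate, and Gcdh is glutaryl-CoA dehydrogenase, which leads to crotonyl-CoA and, further on, acetyl-CoA. Inherited loss of several of these enzymes causes metabolic disease in humans, among them histidinemia (HAL), pyridoxine-dependent epilepsy (ALDH7A1) and glutaric aciduria (GCDH).

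In the GRCm38 mouse genome, Hal lies on the forward strand at chr10:93488768-93519304 and Amdhd1 on the reverse strand at chr10:93523338-93540033, so that 2 genes of the histidine pathway converge with 4033 bases between their ends. Ftcd is also on chromosome 10, at chr10:76575648-76590338 on the forward strand. Uroc1 (chr6:90333284-90364551, forward) and Aass (chr6:23072173-23132986, reverse) share chromosome 6 at a distance. Aldh7a1 (chr18:56509687-56572951), Dhtkd1 (chr2:5896115-5942792) and Gcdh (chr8:84886393-84893921) are on the reverse strand. All 8 are protein coding. The reads came from the 3′ ends of transcripts (Lexogen QuantSeq 3′ FWD), so each count stands for the last exon and its untranslated region. Genes on the other strand overlap Aldh7a1 (Phax) and Gcdh (Syce2), and whether the counting used strand is not given in the sources used here. Phax averaged 307.1 to 342.6 normalized counts and Syce2 13.13 to 17.88 over the 5 diets.

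Library totals ran from 7694015 to 14565542 counts, and values are given below as normalized counts, the authors' counts divided by the size factor of the library. These are not scaled for gene length, so levels are compared between diets within a gene and not between genes. Soy-20% + SAA livers 3 to 6 stood apart from the rest. Their log2 counts rose with GC in the 3′ ends of transcripts by 0.056 to 0.225 on the log2 scale per 10% GC, against -0.082 to 0.047 in the other 26 livers, that is, transcripts with AT-rich 3′ ends had lower counts. Tests and orders that use this diet are given with and without these 4 livers, and correlations without them. Soy-10% liver 4 carried pancreatic acinar transcripts, with a summed normalized count of 6075 over 5 acinar genes against at most 628.8 in any other liver. Hepatocyte markers were high in all 30 livers, with sums over Alb, Apoa1, Ttr, Serpina1c and Cyp2e1 from 761148 to 985561.

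**Figure D1:**
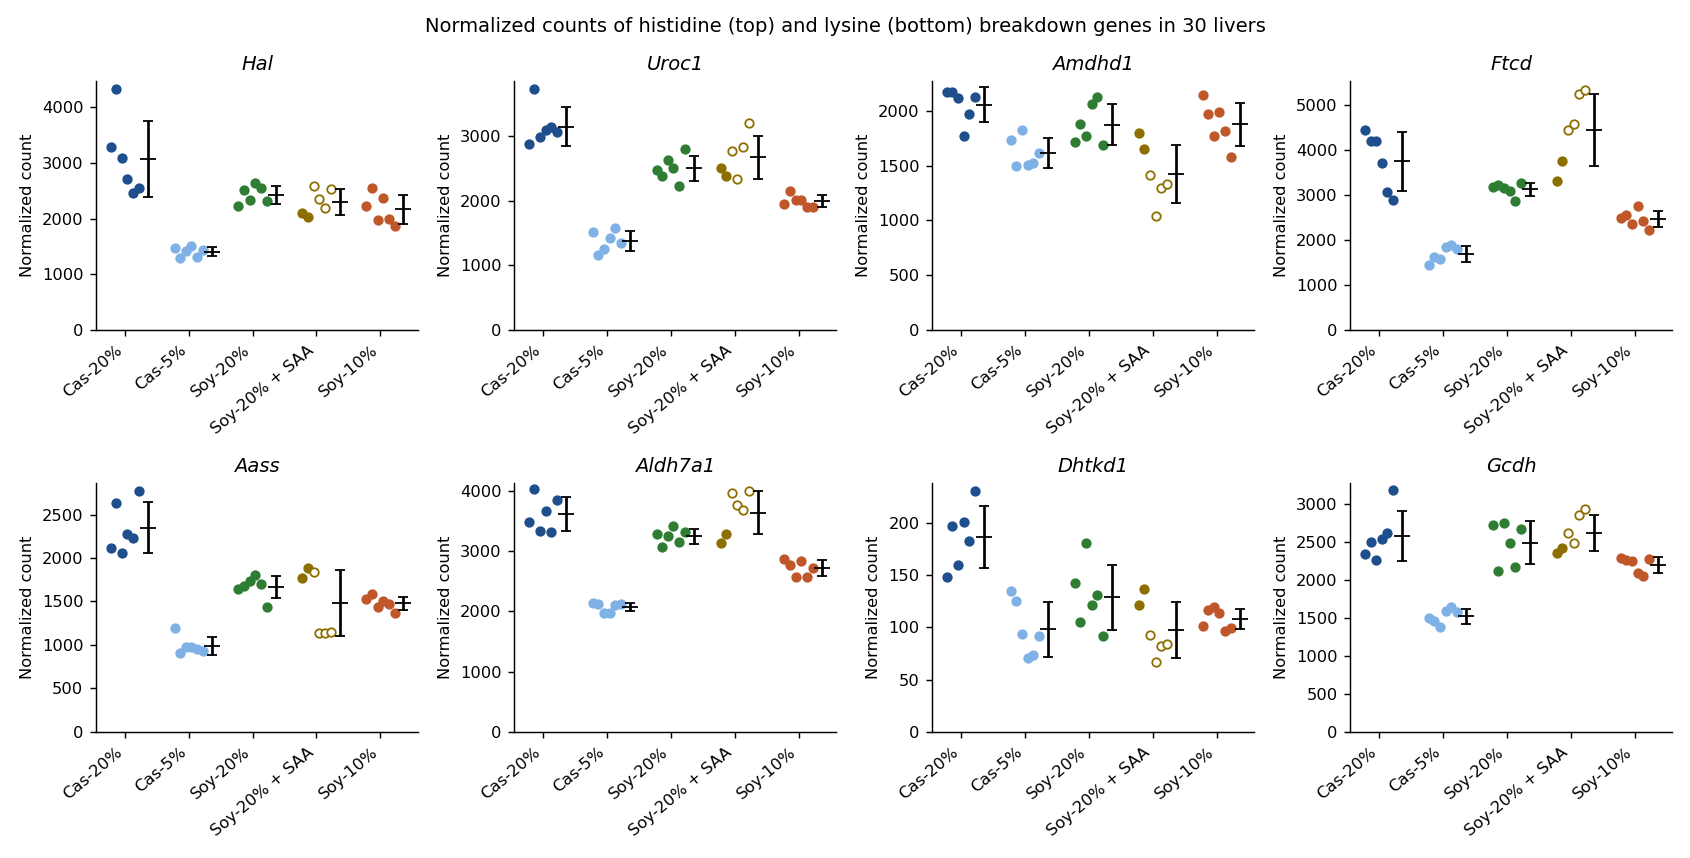
Normalized counts (vertical axis, from 0) of the 4 histidine genes (top) and the 4 lysine genes (bottom) by diet; each point is 1 liver, bars are mean ± SD (n = 6), and open points are Soy-20% + SAA livers 3 to 6. Cas-5% livers sit below all Cas-20% livers for every gene but Amdhd1, and Aass and Ftcd split within Soy-20% + SAA.

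The first question was what casein restriction did to both pathways. All 8 genes were lower in the Cas-5% livers than in the Cas-20% livers at a Benjamini-Hochberg adjusted p of 0.05 or less over all genes tested (edgeR quasi-likelihood test), which is the call used throughout. Over the 12076 genes tested, 24.9% were called, and 13.3% were called lower. The median log2 difference was -1.02 over the 8 genes and 0.02 over all genes. In 7 of the 8, every Cas-5% liver was below every Cas-20% liver, which held for 7.73% of all genes. In whole-liver RNA, fewer cells of a type and less RNA per cell cannot be told apart.

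Of the histidine genes, Hal, the entry enzyme, had normalized counts from 2469 to 4321 (median 2902) in the Cas-20% livers and from 1302 to 1509 (median 1427) in the Cas-5% livers. The groups did not overlap, and the spread was wider on the control diet (3073 ± 687 against 1409 ± 87.7, SD, n = 6). The log2 difference was -1.11 ± 0.12 (SE; adjusted p = 3.2e-06), a level 2.16-fold lower. Uroc1 ran from 2868 to 3721 (median 3080) on Cas-20% and from 1164 to 1582 (median 1379) on Cas-5%. It fell by 1.18 ± 0.09 on the log2 scale (adjusted p = 6.8e-08), again without overlap. Ftcd, the last enzyme of the pathway, ran from 2880 to 4452 (median 3959) on Cas-20% and from 1442 to 1893 (median 1714) on Cas-5%, a log2 difference of -1.13 ± 0.11 (adjusted p = 1.4e-06). These 3 genes thus fell by near-equal amounts, to 45.8%, 43.8% and 45.2% of their Cas-20% means.

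Amdhd1, whose product acts between Uroc1 and Ftcd, changed less. Its normalized counts were 1766 to 2175 (median 2118) on Cas-20% and 1500 to 1828 (median 1571) on Cas-5%, and a single Cas-5% liver reached into the range of the controls. The log2 difference was -0.33 ± 0.07 (95% interval -0.48 to -0.18; adjusted p = 0.00299), a level 1.26-fold lower. The intervals of Hal (-1.36 to -0.87), Uroc1 (-1.36 to -0.99) and Ftcd (-1.36 to -0.90) lay wholly below that of Amdhd1. The difference between genes was not itself tested.

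Among the lysine genes, Aass, which catalyses the first steps of the saccharopine pathway, ran from 2059 to 2773 (median 2258) on Cas-20% and from 903 to 1194 (median 963.4) on Cas-5%. Its log2 difference, -1.23 ± 0.09 (adjusted p = 6e-08), was a fall to 42.1% of the Cas-20% mean, and the groups were far apart. Aldh7a1 went from 3322 to 4038 (median 3587) down to 1977 to 2138 (median 2112), with a log2 difference of -0.79 ± 0.06 (adjusted p = 2.3e-07). The Cas-5% livers were within a narrow band for this gene (2074 ± 74.5, n = 6). Dhtkd1 was measured from few reads, with raw counts of 73 to 208 per library on these diets. It ran from 148.2 to 230.3 (median 189.9) on Cas-20% and from 70.13 to 134.5 (median 92.34) on Cas-5%, and fell by 0.92 ± 0.15 on the log2 scale (adjusted p = 0.00033). Gcdh ran from 2263 to 3183 (median 2517) on Cas-20% and from 1376 to 1641 (median 1532) on Cas-5%, a log2 difference of -0.74 ± 0.08 (adjusted p = 4.5e-06). All 4 lysine genes were separated between the diets without overlap, and their levels were 1.68-fold (Gcdh) to 2.35-fold (Aass) lower.

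The promoters of the 4 genes whose level was more than 2-fold lower, and that of Amdhd1, which changed least, are shown to let a reader set the genes that moved together beside the gene that moved less. Each is the 250 bases before the transcription start in RefSeq (GRCm38.p6), read 5′ to 3′ on the strand of the gene, at chr10:93488518-93488767 (+) for Hal, chr6:90333039-90333288 (+) for Uroc1, chr10:76575398-76575647 (+) for Ftcd, chr6:23132987-23133236 (-) for Aass and chr10:93540034-93540283 (-) for Amdhd1. Capitals mark matches, on either strand, to the motifs searched.
Hal: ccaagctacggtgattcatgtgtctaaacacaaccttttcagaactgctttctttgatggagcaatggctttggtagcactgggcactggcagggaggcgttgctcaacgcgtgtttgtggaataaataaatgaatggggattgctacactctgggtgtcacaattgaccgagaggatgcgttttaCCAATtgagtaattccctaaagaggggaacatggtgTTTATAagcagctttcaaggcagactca
Uroc1: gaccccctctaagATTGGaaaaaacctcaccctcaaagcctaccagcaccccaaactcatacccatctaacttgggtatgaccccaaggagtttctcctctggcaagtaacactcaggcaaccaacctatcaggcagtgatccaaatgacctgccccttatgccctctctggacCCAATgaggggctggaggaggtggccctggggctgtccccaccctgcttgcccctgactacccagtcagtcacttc
Ftcd: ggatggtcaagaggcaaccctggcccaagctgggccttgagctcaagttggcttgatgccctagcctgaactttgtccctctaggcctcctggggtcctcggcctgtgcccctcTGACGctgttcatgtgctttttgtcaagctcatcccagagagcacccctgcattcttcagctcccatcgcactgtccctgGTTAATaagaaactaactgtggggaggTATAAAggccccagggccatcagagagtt
Aass: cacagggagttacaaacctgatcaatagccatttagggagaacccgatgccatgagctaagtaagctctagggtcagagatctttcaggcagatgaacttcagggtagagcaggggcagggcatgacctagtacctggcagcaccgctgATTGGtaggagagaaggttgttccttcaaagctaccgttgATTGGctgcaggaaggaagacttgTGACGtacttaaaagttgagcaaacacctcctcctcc
Amdhd1: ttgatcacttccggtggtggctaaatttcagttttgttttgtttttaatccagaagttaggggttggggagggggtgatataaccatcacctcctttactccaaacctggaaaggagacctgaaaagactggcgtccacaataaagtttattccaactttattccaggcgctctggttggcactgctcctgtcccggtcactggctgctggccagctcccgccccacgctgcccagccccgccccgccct

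The motifs searched on both strands were TGACGTCA, the cyclic AMP response element, its part TGACG, the core TTGCATCA of amino acid response elements, the C/EBP palindrome TTGCGCAA, the steroid receptor letters AGAACA, the TATA box as TATAAA, the CCAAT box as CCAAT, part of the HNF1 site as GTTAAT, and the HNF4 letters CAAAGTCCA. They were searched in 7 members with a promoter in the table (Aldh7a1 had none) and in 32841 promoters of all genes. CCAAT matched in 5 of 7 members (Hal, Uroc1, Aass, Dhtkd1 and Gcdh) and in 33.9% of all promoters. TATAAA matched in Hal, on the reverse strand 23 to 28 bases before the start, and in Ftcd, on the forward strand 24 to 29 bases before the start, and in 12.4% of all promoters. TGACG matched in Ftcd and Aass and in 17.8% of all promoters, and GTTAAT in Ftcd and in 6.43%. None of the 7 held TGACGTCA, TTGCATCA, TTGCGCAA, AGAACA or CAAAGTCCA, which 1.55%, 0.792%, 0.164%, 16.1% and 0.384% of all promoters held. Amdhd1 had no match at all. A match describes letters in this window only.

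**Figure D2:**
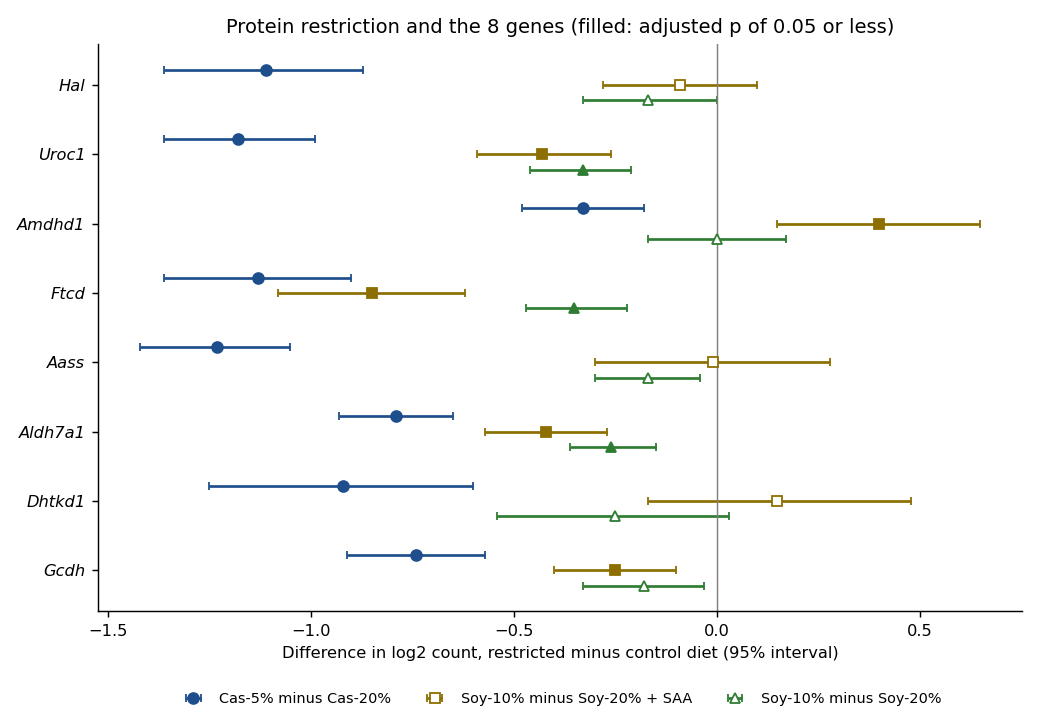
Difference in log2 count between the restricted and the control diet (horizontal axis, with 95% intervals) for each gene, for Cas-5% minus Cas-20%, Soy-10% minus Soy-20% + SAA and Soy-10% minus Soy-20%; filled symbols passed an adjusted p of 0.05. The casein differences lie from -1.23 to -0.33 and the soy differences from -0.85 to 0.40.

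Soy restriction was compared first with Soy-20%, the soy diet without added sulfur amino acids, whose libraries carried no GC trend outside the range of the other diets. Of the 8 genes, 3 were lower in the Soy-10% livers (Uroc1, Ftcd and Aldh7a1), none was higher, and 5 were not called. In this comparison 0.866% of all 11897 genes were called, 0.546% of them as lower. The 3 genes did not overlap between the diets, as was the case for 0.748% of all genes in that direction. Uroc1 ran from 2234 to 2797 (median 2488) on Soy-20% and from 1897 to 2147 (median 1980) on Soy-10%, a log2 difference of -0.33 ± 0.06 (adjusted p = 0.012). Ftcd ran from 2857 to 3258 (median 3168) and from 2215 to 2746 (median 2452), a difference of -0.35 ± 0.06 (adjusted p = 0.00871). Aldh7a1 ran from 3067 to 3425 (median 3268) and from 2573 to 2872 (median 2747), a difference of -0.26 ± 0.05 (adjusted p = 0.025). Each of these steps was a small one, from 1.19-fold to 1.27-fold.

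The 5 other genes did not pass the test, with log2 differences of -0.17 for Hal (95% interval -0.33 to -0.00), 0.00 for Amdhd1 (-0.17 to 0.17), -0.17 for Aass (-0.30 to -0.04), -0.25 for Dhtkd1 (-0.54 to 0.03) and -0.18 for Gcdh (-0.33 to -0.03). A drop in Hal or Aass as deep as that on the casein diets lies outside these intervals. Without Soy-10% liver 4, the library with acinar transcripts, Uroc1 (-0.34, adjusted p = 0.0218), Ftcd (-0.38, adjusted p = 0.00651) and Aldh7a1 (-0.27, adjusted p = 0.033) were still called. The call of Aldh7a1 was lost when Soy-20% liver 1, 4 or 6 or Soy-10% liver 2, 3, 5 or 6 was left out, each alone, with differences of -0.26 to -0.24 and adjusted p from 0.0522 to 0.0801.

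Against Soy-20% + SAA, the control matched to Cas-20% in sulfur amino acids, 5 of the 8 genes were called in the Soy-10% livers, 4 lower and 1 higher. Of all 11983 genes 17% were called, 8.47% lower and 8.51% higher. Ftcd had the largest difference of the 8, from 3319 to 5338 (median 4513) on Soy-20% + SAA and from 2215 to 2746 (median 2452) on Soy-10%, or -0.85 ± 0.11 on the log2 scale (adjusted p = 0.00035). Uroc1 differed by -0.43 ± 0.08 (adjusted p = 0.00371), Aldh7a1 by -0.42 ± 0.07 (adjusted p = 0.00213) and Gcdh by -0.25 ± 0.07 (adjusted p = 0.0248). Amdhd1 went the other way, with 1044 to 1794 (median 1375) on Soy-20% + SAA and 1581 to 2142 (median 1892) on Soy-10%, a difference of 0.40 ± 0.12 (adjusted p = 0.0307). Hal (-0.09), Aass (-0.01) and Dhtkd1 (0.15) did not pass the test.

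These values moved when Soy-20% + SAA livers 3 to 6 were left out. With the 2 remaining control livers, 3 genes were called, all lower: Uroc1 by -0.30 (adjusted p = 0.0475), Ftcd by -0.53 (adjusted p = 0.00701) and Aass by -0.31 (adjusted p = 0.0485). Amdhd1 was then at 0.12 (adjusted p = 0.631), Aldh7a1 at -0.25 (adjusted p = 0.111) and Gcdh at -0.13 (adjusted p = 0.443). Among all genes 317 were called in place of 2035. Ftcd and Uroc1 were thus called lower with and without livers 3 to 6, and the call of Amdhd1 as higher was not kept. With all livers kept and the GC slope of each library as a covariate, 2 genes were called, both lower. These were Ftcd (-0.55, adjusted p = 0.00312) and Aass (-0.36, adjusted p = 0.0489). The calls of Uroc1 (-0.31, adjusted p = 0.0829) and Amdhd1 (0.18, adjusted p = 0.484) were lost in that fit. So were those of Aldh7a1 (-0.29, adjusted p = 0.0558) and Gcdh (-0.14, adjusted p = 0.395). Amdhd1 lost its call with 1 liver left out, for each of Soy-20% + SAA livers 3 to 6 and Soy-10% livers 1, 2, 4 and 5. Its difference was then 0.32 to 0.41, with adjusted p from 0.0514 to 0.0692. The call of Gcdh was lost without Soy-20% + SAA liver 5 or 6 or Soy-10% liver 5 (-0.23 to -0.21, adjusted p from 0.0581 to 0.0597).

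The individual Soy-20% + SAA livers show how the split fell on these genes. Aass had normalized counts of 1775, 1884 and 1842 in livers 1 to 3 and of 1139, 1134 and 1149 in livers 4 to 6, a gap with no value between. Amdhd1, with 38.5% GC in the last 200 bases of its transcripts the most AT-rich of the 8 3′ ends, had 1794 and 1648 in livers 1 and 2 and 1415, 1044, 1295 and 1335 in livers 3 to 6. Dhtkd1 (44.4% GC) went from 121.4 and 136.9 to 92.94, 67.08, 82.03 and 84.04 in the same order. Ftcd (49% GC) had 3319 and 3753 in livers 1 and 2, and 4442, 4584, 5242 and 5338 in livers 3 to 6. Hal (45.2% GC) had 2093 and 2028 in livers 1 and 2 and 2188 to 2587 in livers 3 to 6. Aldh7a1 (46.6% GC) had 3142 and 3291 against 3689 to 4002, and Gcdh (52.5% GC) 2351 and 2420 against 2479 to 2923. Livers 3 to 6 were thus all below livers 1 and 2 for Amdhd1 and Dhtkd1 and all above them for Hal, Ftcd, Aldh7a1 and Gcdh, while Aass was low in livers 4 to 6 alone and Uroc1 overlapped. The part of the library trend in these differences was not tested gene by gene beyond the fits with the trend as a covariate.

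**Figure D3:**
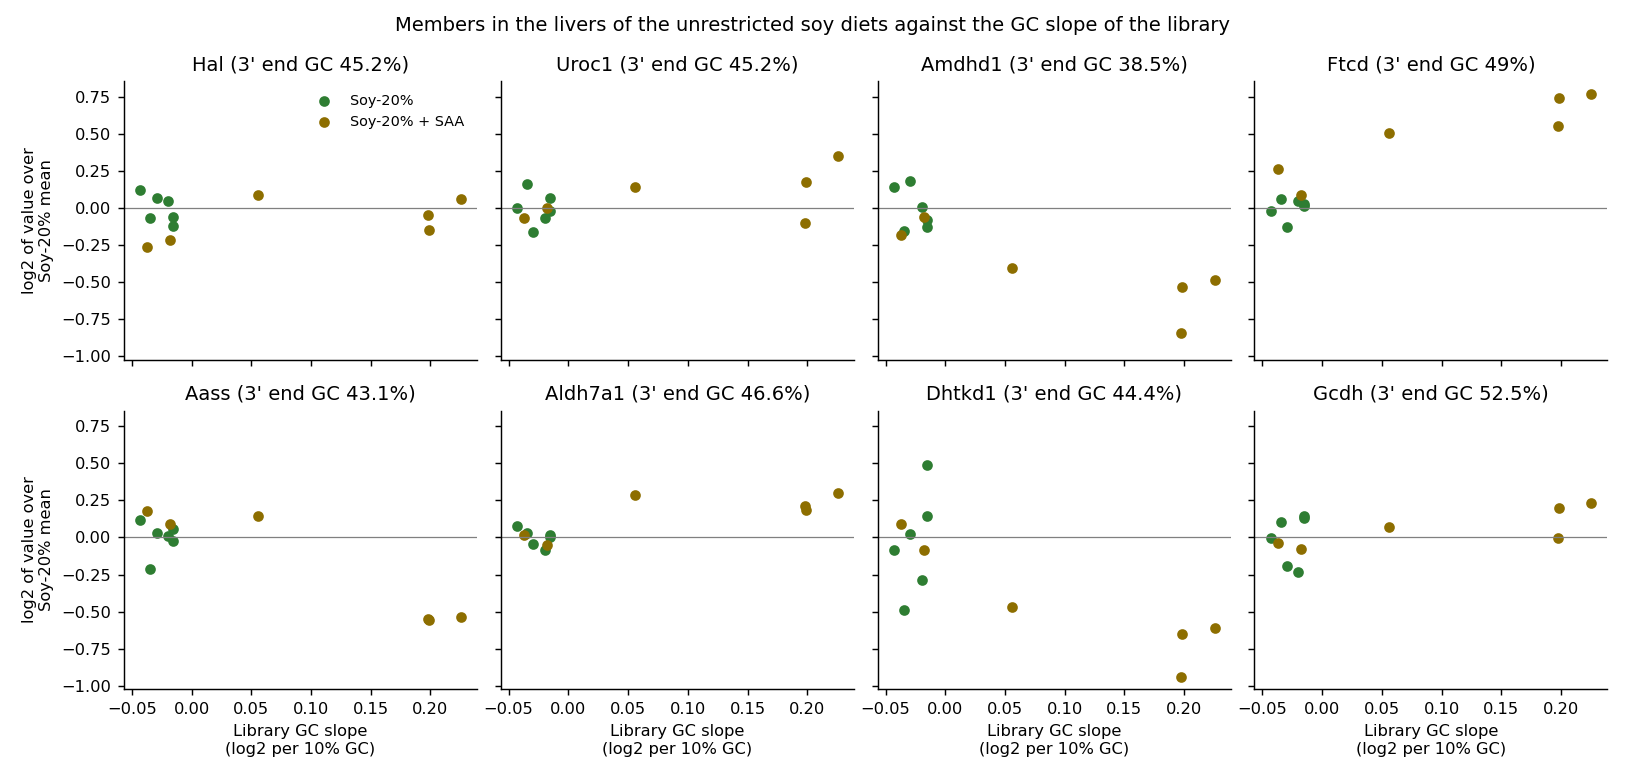
Members in the 6 Soy-20% and 6 Soy-20% + SAA livers, as log2 of the normalized count over the Soy-20% mean (vertical axis), against the GC slope of each library (horizontal axis, log2 per 10% GC). In the libraries with slopes of 0.056 to 0.225, Amdhd1 and Dhtkd1 lie below the Soy-20% mean and Ftcd and Aldh7a1 above it, and Aass lies below it in 3 of these 4.

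The addition of sulfur amino acids at 20% soy was examined by setting Soy-20% against Soy-20% + SAA. None of the 8 genes was called by edgeR, where 0.00838% of all 11932 genes, 1 gene (Chic1, named because it was the only call), passed. At an unadjusted p under 0.05 there were 2892 genes, 4 of the 8 among them, and DESeq2 called 873 genes, Amdhd1 and Ftcd among them. Amdhd1 was higher on Soy-20% (1684 to 2125, median 1826) than on Soy-20% + SAA by 0.41 (95% interval 0.15 to 0.66; adjusted p = 0.082), and Ftcd lower by -0.50 (-0.72 to -0.28; adjusted p = 0.0546). Both were called when Soy-20% + SAA liver 1 or liver 2, which had no such GC trend, was left out, with Amdhd1 at 0.49 (adjusted p = 0.0157) and 0.45 (adjusted p = 0.0378) and Ftcd at -0.57 (adjusted p = 0.00498) and -0.54 (adjusted p = 0.0267). With livers 3 to 6 left out instead, Amdhd1 was at 0.12 (adjusted p = 0.868), Ftcd at -0.18 (adjusted p = 0.739), Aldh7a1 at 0.01 (adjusted p = 0.988) and Dhtkd1 at -0.01 (adjusted p = 0.999). Soy-20% and Soy-20% + SAA differed in methionine (0.22 against 0.58 gm%) and in cysteine (0.22 against 0.41 gm%). No change in the 8 genes was called in the edgeR fit of these 12 livers.

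With 20% protein from either source, all 8 genes had means on Cas-20% above those on Soy-20%, and 2 were called higher, Uroc1 by 0.33 ± 0.07 (adjusted p = 0.0294) and Aass by 0.49 ± 0.08 (adjusted p = 0.00597). Of all 11875 genes 2.69% were called, 1.45% higher and 1.24% lower. For Aass, the Cas-20% livers (2059 to 2773) were above all Soy-20% livers (1437 to 1809), as was so for 1.16% of all genes. Dhtkd1 (0.54, adjusted p = 0.0635) and Hal (0.34, adjusted p = 0.126) did not pass. The call of Uroc1 was lost without Cas-20% liver 4 or Soy-20% liver 2, 4 or 5 (0.30 to 0.33, adjusted p from 0.0556 to 0.0665). Dhtkd1 was called without Soy-20% liver 3 (0.66, adjusted p = 0.0202), and Ftcd without Cas-20% liver 6 (0.33, adjusted p = 0.0485). Cas-20% also held more methionine (0.57 against 0.22 gm%) and cysteine (0.41 against 0.22 gm%) than Soy-20%. Protein source and sulfur amino acids therefore cannot be told apart in this comparison.

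Compared with Soy-20% + SAA, 3 genes were called higher on Cas-20%, Amdhd1 by 0.53 ± 0.11 (adjusted p = 0.0381), Aass by 0.66 ± 0.15 (adjusted p = 0.0419) and Dhtkd1 by 0.94 ± 0.17 (adjusted p = 0.0233), where 2.43% of all 11988 genes were called, 1.42% higher and 1.01% lower. None of the 3 was called without Soy-20% + SAA livers 3 to 6, when the differences were 0.25 (adjusted p = 0.655), 0.36 (adjusted p = 0.607) and 0.53 (adjusted p = 0.577), and only 3 of all genes were called. With single livers left out, the calls of Amdhd1 and Aass were kept only on leaving out Soy-20% + SAA liver 1 or 2, and that of Dhtkd1 was lost without Cas-20% liver 2 or 5 or Soy-20% + SAA liver 5 or 6.

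The restricted diets were compared with each other directly, since their sulfur amino acids were alike. In the Cas-5% livers 6 of the 8 genes were lower than in the Soy-10% livers and none was higher. Over all 12041 genes 10.7% were called, 6.14% lower and 4.59% higher. The 6 genes did not overlap between the diets (4.09% of all genes). Hal showed the largest difference, from 1302 to 1509 on Cas-5% against 1877 to 2557 on Soy-10%, or -0.60 ± 0.08 (adjusted p = 7.6e-05). Aass was at -0.56 ± 0.07 (adjusted p = 5.5e-05), Ftcd at -0.52 ± 0.07 (adjusted p = 0.00019), Uroc1 and Gcdh at -0.51, and Aldh7a1 at -0.38. Amdhd1 (-0.20, 95% interval -0.36 to -0.04, adjusted p = 0.108) and Dhtkd1 (-0.14, -0.44 to 0.16, adjusted p = 0.602) did not pass. Amdhd1 was called when Soy-10% liver 6 was left out (-0.24, adjusted p = 0.0476). The protein contents of 5% and 11.5% differ along with the protein source, so these cannot be told apart here.

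Casein and soy restriction were compared as the casein effect (Cas-5% minus Cas-20%) minus the soy effect (Soy-10% minus Soy-20% + SAA) in 24 livers. The difference was negative for all 8 genes and called for 7, that is, the casein value was the lower of the pair. Among all 12532 genes 8.69% were called, 5.49% negative and 3.2% positive. Aass had -1.23 ± 0.17 (adjusted p = 0.00014), Dhtkd1 -1.08 ± 0.23 (adjusted p = 0.00608), Hal -1.03 ± 0.15 (adjusted p = 0.00027), Uroc1 -0.76 ± 0.12 (adjusted p = 0.00038), Amdhd1 -0.73 ± 0.14 (adjusted p = 0.00287), Gcdh -0.50 ± 0.10 (adjusted p = 0.00529) and Aldh7a1 -0.37 ± 0.09 (adjusted p = 0.0142). Ftcd was not called, at -0.28 (95% interval -0.61 to 0.04, adjusted p = 0.263). Protein went from 20% to 5% in the casein diets and from 20% to 11.5% in the soy diets. Protein source and depth of restriction therefore cannot be told apart in this contrast.

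The pattern held for 5 genes whichever soy control was used. Without Soy-20% + SAA livers 3 to 6, the difference was called for Hal (-1.18), Uroc1 (-0.88), Aass (-0.93), Aldh7a1 (-0.55) and Gcdh (-0.63), and with Soy-20% as the control for the same 5 (-0.95, -0.85, -1.07, -0.54 and -0.57) and for Ftcd (-0.79, adjusted p = 0.00028). Amdhd1 was not called in either (-0.45, adjusted p = 0.0635, and -0.34, adjusted p = 0.0597). Dhtkd1 was not called either (-0.67, adjusted p = 0.149, and -0.68, adjusted p = 0.0613). Both kinds of comparison share the casein livers and the Soy-10% livers. Soy-20% held 0.22 gm% methionine against 0.57 gm% in Cas-20%, so with that control the sulfur amino acids were not matched.

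**Figure D4:**
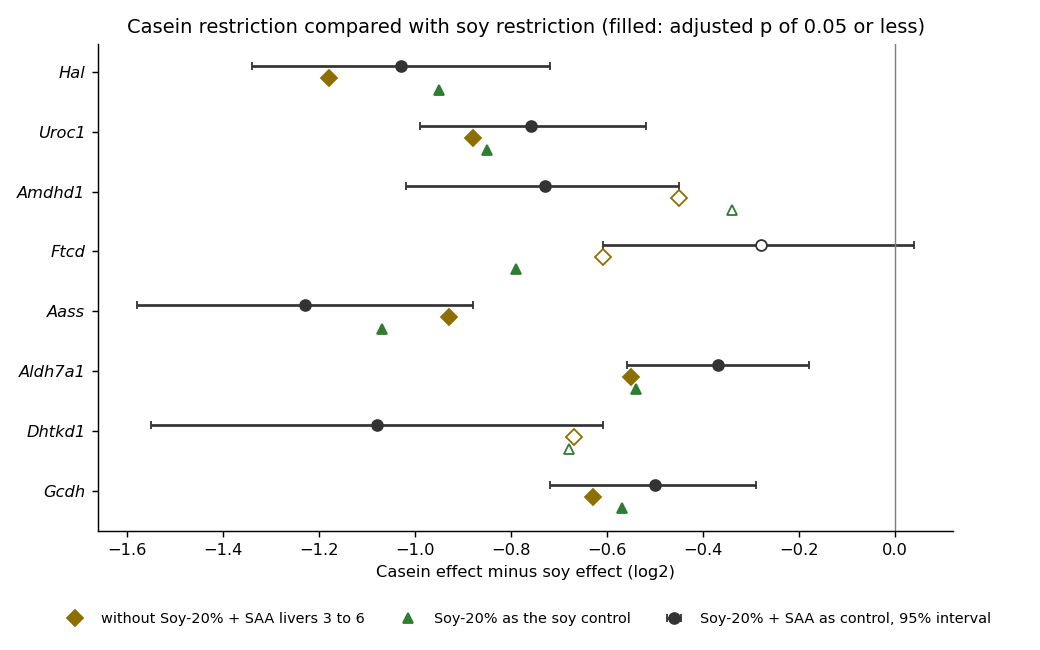
Casein effect minus soy effect on the log2 scale (horizontal axis) for each gene, with Soy-20% + SAA as the soy control (circles, 95% interval), without its livers 3 to 6 (diamonds) and with Soy-20% as the control (triangles); filled symbols passed an adjusted p of 0.05. All values lie below 0, and the 5 genes Hal, Uroc1, Aass, Aldh7a1 and Gcdh are filled in all 3.

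Over the 5 diets together, all 8 genes differed (edgeR, adjusted p from 1.1e-11 for Uroc1 to 0.00048 for Amdhd1), as did 43.4% of all 12561 genes. All 8 were called without Soy-20% + SAA livers 3 to 6 too, when 3433 of all genes were in place of 5450. Hal and Aass had the same order of means, Cas-20%, Soy-20%, Soy-20% + SAA, Soy-10% and Cas-5% from high to low. For Hal no step between the first 4 was called, and Cas-5% stood below Soy-10%. For Aass the steps from Cas-20% to Soy-20% and from Soy-10% to Cas-5% were called and the steps between were not. Uroc1 had the order Cas-20%, Soy-20% + SAA, Soy-20%, Soy-10%, Cas-5%, with means of 3143, 2667, 2503, 1988 and 1377, of which the last 2 steps were called and the first 2 were not. Ftcd, Aldh7a1 and Gcdh were highest on Soy-20% + SAA (4446, 3644 and 2607), then Cas-20%, Soy-20%, Soy-10% and Cas-5%. For these 3 genes the lowest step, Soy-10% to Cas-5%, was called, and so was Soy-20% to Soy-10% for Ftcd and Aldh7a1. Amdhd1 and Dhtkd1 were instead lowest on Soy-20% + SAA (1422 ± 267 and 97.4 ± 26.4), the diet with the uneven libraries, and their range from the highest to the lowest mean was 1.44-fold and 1.91-fold. Not every pair of neighbours in their order was tested. The place of Soy-20% + SAA depended on its livers 3 to 6. With livers 1 and 2 alone, its means of 3536 (Ftcd), 3217 (Aldh7a1) and 2386 (Gcdh) were below those of Cas-20%, and its means of 1721 (Amdhd1) and 129.1 (Dhtkd1) were above those of Cas-5%. All 8 genes were then highest on Cas-20% and lowest on Cas-5%, with Soy-20% + SAA at rank 2 for Ftcd, Aass and Dhtkd1, at 3 for Uroc1, Aldh7a1 and Gcdh and at 4 for Hal and Amdhd1.

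The 8 genes were set beside each other over the 26 livers without Soy-20% + SAA livers 3 to 6, as a description of libraries that share diets. Pearson's r of log2 CPM had a median of 0.70 over the 6 pairs of histidine genes, 0.78 over the 6 pairs of lysine genes and 0.68 over the 16 pairs across the pathways. Uroc1 and Aldh7a1, from different pathways, had the highest value (0.95), and Amdhd1 and Gcdh the lowest (0.12). After the mean of each diet was taken out, the medians were 0.18, 0.43 and -0.05. Within diets r was 0.25 to 0.58 in the 6 lysine pairs and -0.15 to 0.49 in the 6 histidine pairs. Across the pathways it ran from -0.52 (Ftcd and Dhtkd1) to 0.45 (Uroc1 and Gcdh). These values were not tested. The highest values thus came from differences between the diets.

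Among 12025 genes, the 5 most like the mean profile of the histidine genes over these livers were Gls2, the liver glutaminase (r = 0.96), Ass1, argininosuccinate synthase of the urea cycle (0.95), Gnmt, glycine N-methyltransferase (0.95), Ddt (0.94) and Abat, which degrades the neurotransmitter GABA (0.94). For the lysine genes they were Gpt, alanine transaminase (0.94), Dcxr, a xylulose reductase (0.94), Hpd of tyrosine breakdown (0.92), Gnmt again (0.92) and Oat, ornithine aminotransferase (0.91). They were picked for following the members over livers that include both casein diets, so a lower level on Cas-5% was built into the choice. Their log2 differences between Cas-5% and Cas-20% ran from -0.95 (Ddt) to -2.46 (Oat). Gls2 averaged 3214 on Cas-20%, 2346 on Soy-20%, 1671 on Soy-10% and 878.9 on Cas-5%.

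Genes around the pathways were taken from fixed lists of transporters, side reactions and downstream enzymes. Of 24 neighbours of histidine breakdown, 23 were in the table and 22 were tested in the casein comparison, where 9 were lower, 3 were higher and 10 were not called (median log2 difference -0.11), beside 13.3% lower and 11.6% higher among all genes. The amino acid carriers Slc38a3, which takes up glutamine and histidine, and Slc38a4 fell from 5710 ± 488 to 2535 ± 179 and from 10410 ± 1291 to 4786 ± 535 (log2 -1.16 and -1.11, adjusted p = 1.3e-08 and 3e-07). Aldh1l1, the cytosolic formyltetrahydrofolate dehydrogenase, which acts on folate downstream of Ftcd, fell from 4137 ± 631 to 1420 ± 123 (-1.53 ± 0.10, adjusted p = 1.3e-08). The mitochondrial aldehyde dehydrogenase Aldh1b1 fell from 961.5 ± 497 to 146.4 ± 27 (-2.69 ± 0.24, adjusted p = 6.9e-07). Aldh1l2, the mitochondrial counterpart of Aldh1l1, rose from 2.569 ± 1.95 to 34.16 ± 11.5 normalized counts (adjusted p = 2.7e-06), and a fold change from so few reads is not given. Aldh1l2 was near the floor on Cas-20%, so it passed the filter on low counts through the Cas-5% livers alone. Its direction beside that of Aldh1l1 is therefore not read as a result.

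In the soy comparisons fewer of the same list passed. Among all genes, 0.546% were lower and 0.319% higher against Soy-20%, and 8.47% and 8.51% against Soy-20% + SAA. When Soy-20% was the control, 3 of 20 tested neighbours were lower and none higher, namely Aldh1l1 (-0.46, adjusted p = 0.00784), Aldh1b1 (-0.94, adjusted p = 0.00198) and Hnmt, which methylates histamine (-0.53, adjusted p = 0.0122). Hnmt had also fallen with casein restriction (-1.27, adjusted p = 3e-06). Against Soy-20% + SAA 5 of 20 were lower and 1 was higher, with Slc38a4 at -0.50 (adjusted p = 0.00045), Aldh1b1 at -1.62 (adjusted p = 0.0007), Slc38a3 at -0.57 (adjusted p = 0.00078), Aldh1l1 at -0.61 (adjusted p = 0.00105) and the mitochondrial aldehyde dehydrogenase Aldh2 at -0.46 (adjusted p = 0.00781). Without Soy-20% + SAA livers 3 to 6 5 of 22 tested were lower and 1 was higher, with Slc38a4 at -0.51 (adjusted p = 0.00506), Aldh1b1 at -1.11 (adjusted p = 8.3e-05), Slc38a3 at -0.53 (adjusted p = 0.0117) and Aldh1l1 at -0.53 (adjusted p = 0.0137). Aldh2 was not called there (-0.15, adjusted p = 0.39), whereas Hnmt, which was at -0.08 (adjusted p = 0.819) with all 12 livers, was called lower (-0.64, adjusted p = 0.0115). The gene called higher was Aldh1l2 (adjusted p = 0.0475), which had too few counts to be tested with all 12 livers. It passed the filter on low counts only after livers 3 to 6 were left out. Its call is therefore not read as a result.

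Of 29 neighbours of lysine breakdown, 28 were in the table and 27 were tested. With casein restriction 10 were lower, 3 were higher and 14 were not called (median -0.17), beside 13.3% lower and 11.6% higher among all genes. The 3 that rose are parts of carriers for basic or large amino acids. Slc7a7 rose from 24.71 ± 6.58 to 101.9 ± 8 (2.04 ± 0.15, adjusted p = 6.1e-08), Slc7a1, a carrier of lysine and arginine, from 12.52 ± 0.989 to 48.29 ± 13.8 (1.93 ± 0.21, adjusted p = 4.3e-06), and Slc3a2, the heavy chain that pairs with Slc7a7, from 534.8 ± 44.7 to 789.2 ± 67.7 (0.57 ± 0.07, adjusted p = 3e-05). Slc7a2, a basic amino acid carrier well known in liver, went the other way, from 4624 ± 702 to 2042 ± 427 (-1.17 ± 0.13, adjusted p = 6.1e-06). Shmt1, a serine hydroxymethyltransferase of the cytosol, fell by 0.60 on the log2 scale (adjusted p = 1.1e-05).

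Slc7a7 was the only lysine neighbour called with Soy-20% as the control (0.82 ± 0.15, adjusted p = 0.0166), and it was called against Soy-20% + SAA too (1.18 ± 0.15, adjusted p = 0.00039). In that comparison 8 of 27 were lower and 5 higher, beside 8.47% and 8.51% of all genes. The other 4 with the smallest p included Hykk, the hydroxylysine kinase (-0.36), and Slc25a15, a mitochondrial ornithine carrier (-0.38). They also included Echs1, the enoyl-CoA hydratase that acts on crotonyl-CoA (-0.25), and Acat2, an acetyl-CoA acetyltransferase (-0.76). Without livers 3 to 6, 1 of 27 was lower and 1 higher, Hykk (-0.38, adjusted p = 0.033) and Slc7a7 (0.86, adjusted p = 0.0269), and Slc25a15 (-0.19, adjusted p = 0.3), Echs1 (-0.16, adjusted p = 0.294) and Acat2 (-0.41, adjusted p = 0.3) were not called. Slc7a1 did not pass with either soy control (0.37, adjusted p = 0.544, and 0.76, adjusted p = 0.079), and passed against Soy-20% + SAA when liver 2 of that diet was left out (0.98, adjusted p = 0.0238).

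**Figure D5:**
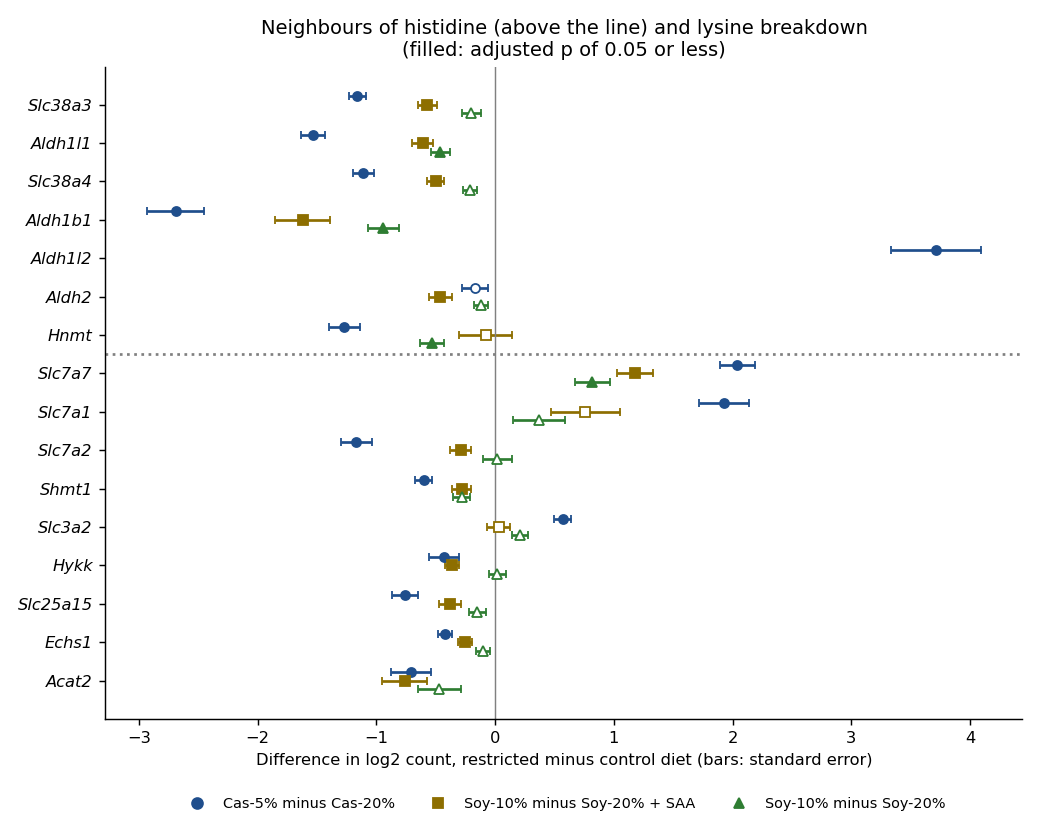
Difference in log2 count between the restricted and the control diet (horizontal axis, bars are SE) for the named neighbours of histidine breakdown (above the dotted line) and of lysine breakdown (below it), for the 3 restriction comparisons; filled symbols passed an adjusted p of 0.05, and Aldh1l2 was tested in the casein comparison alone. The lowest value is -2.69 (Aldh1b1), the point of Aldh1l2 rests on few reads, and Slc7a7 is to the right of 0 in all 3.

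For scale, the same counts were taken in the breakdown of other amino acids. Among all genes 13.3% were lower with casein restriction, 0.546% against Soy-20% and 8.47% against Soy-20% + SAA. With casein restriction 8 of 8 genes of phenylalanine and tyrosine breakdown (median -0.81) and 6 of 7 of tryptophan breakdown (median -0.73) were lower, beside 8 of 8 here (median -1.02). With Soy-20% as the control 0 of 8 and 0 of 7 were called, with medians of -0.21 in both, beside 3 of 8 here with a median of -0.21. Against Soy-20% + SAA, 6 of 8 and 2 of 7 were lower (medians -0.36 and -0.09), beside 4 of 8 here (median -0.17), and without livers 3 to 6 these counts were 0, 1 and 3 (medians -0.19, -0.07 and -0.25). The difference between lists was not tested.

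Markers of liver zones moved with the casein comparison. Among all genes 13.3% were lower in it and 11.6% higher. The summed periportal markers ran from 54649 to 78212 on Cas-20% and from 30875 to 41735 on Cas-5%, and 6 of 8 were lower. These 6 are Ass1, Gls2, Cps1, Sds and Arg1, enzymes of nitrogen metabolism, and Cyp2f2 (-0.73, adjusted p = 1.7e-05). Hsd17b13 (0.20, adjusted p = 0.0557) and Pck1 (-0.29, adjusted p = 0.152) were not called. Of the pericentral markers 5 of 8 were lower, with Oat at -2.46. Glul (-0.14, adjusted p = 0.303), Cyp2e1 (0.00, adjusted p = 0.99) and Axin2 (0.50, adjusted p = 0.0863) were not called. The pericentral sums were 58510 to 82483 on Cas-20% and 49154 to 56098 on Cas-5%. Red blood cell transcripts were lower too, in 4 of 5 genes, with sums of 15728 to 34944 and 11503 to 19812. Stellate markers were higher in 2 of 6 (3751 to 4413 and 4109 to 5469). Sinusoidal endothelial markers were higher in 1 of 5 (2312 to 2714 and 2577 to 2925). No Kupffer cell marker was called (1788 to 2974 and 1768 to 2838), nor any cholangiocyte marker tested. Of 5 hepatocyte markers 1 was higher and 1 lower (761148 to 865672 and 781992 to 985561). The 1 pancreatic acinar gene tested was lower (-0.75).

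Markers moved in other comparisons too. Among all genes, 0.546% were lower in Soy-10% against Soy-20%, and 8.47% lower and 8.51% higher against Soy-20% + SAA. For Cas-5% against Soy-10% 6.14% were lower and 4.59% higher, and 5.49% were negative for the difference between casein and soy. At 20% protein, 1.45% and 1.42% were higher on Cas-20% than on Soy-20% and Soy-20% + SAA. In Soy-10% against Soy-20%, 2 of 8 periportal markers were lower, Ass1 (-0.87, adjusted p = 0.0013) and Gls2 (-0.49, adjusted p = 0.0334), with sums of 38977 to 46068 on Soy-10% and 43841 to 54538 on Soy-20%. No pericentral marker was called there, and 1 of 2 cholangiocyte markers tested was lower, with list sums of 265.6 to 352.4 and 393.5 to 548.4. In Soy-10% against Soy-20% + SAA, 2 of 8 periportal markers were lower with and without livers 3 to 6. Of the pericentral markers 4 of 8 were lower and 1, Axin2, was higher (1.53, adjusted p = 0.00781). Without these livers 1 pericentral marker was lower and 0 were higher. With all livers 1 of 5 hepatocyte markers was lower and 1 of 6 Kupffer cell markers higher, and without livers 3 to 6 neither list had a call. Cholangiocyte markers were lower in 1 of 2 tested, and in 2 of 3 without livers 3 to 6. In Cas-5% against Soy-10%, 5 of 8 periportal markers were lower and 1 higher, and 4 of 6 stellate markers were higher. Of the pericentral markers 2 of 8 were lower and 2 higher there. The difference between casein and soy restriction was called negative for 6 of 8 periportal markers, and for 5 of 8 without livers 3 to 6. It was called negative for 3 of 8 pericentral markers, and for 2 of 8 without these livers. With 20% protein, 3 of 8 periportal and 4 of 8 pericentral markers were higher on Cas-20% than on Soy-20%. Against Soy-20% + SAA 6 of 8 periportal, 2 of 8 pericentral and 4 of 5 red blood cell markers were higher on Cas-20%, and none was without livers 3 to 6. The part of these markers in the values of the 8 genes was not tested.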

How the data were processed

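Liver RNA of 30 mice was sequenced from transcript 3′ ends. The authors deposited a table of raw counts per gene from a commercial QuantSeq pipeline on GRCm38, and a table of normalized signal, in which each count is divided by the size factor of its library (per the labels, R 4.0.3 and DESeq2 1.30). The aligner and annotation release are not given in the sources used here. All columns were mapped to livers by their titles. Each comparison was fitted on the raw counts of its own livers with edgeR 4.0.16 in R 4.3.3 (TMM scaling, filterByExpr, two-sided quasi-likelihood test, Benjamini-Hochberg over all genes tested, call at 0.05), and the code was tested on simulated data. The library GC slope was fitted over 10688 genes, from the last 200 bases of their transcripts. Labels give separate mice as replicates. The members, lists and tests were chosen with earlier results of these data known. Named neighbours are the up to 5 of each list with the smallest adjusted p in each restriction comparison, and like-patterned genes the 5 with the highest Pearson r. Alternatives were DESeq2 1.42.0, RLE scaling, no filter, a fold threshold, a GC covariate, a replicate block, a single fit on 30 livers, and livers left out.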

Additional observations from a re-analysis of the deposited data

Results flagged for a closer look

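Over the 40 groups of 6 livers formed by 8 genes and 5 diets, 2 had a liver far from the others by Dixon's test (gap over range above 0.625), and chance gives about 1 such group in 20. Uroc1 was at 3721 normalized counts in Cas-20% liver 2, where the other 5 livers of the diet were at 2868 to 3134. Leaving that liver out gave a casein difference of -1.13 in place of -1.18. Aass was at 1194 in Cas-5% liver 1, against 903 to 978.9 in the others, and the casein difference without it was -1.30 in place of -1.23.

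The casein effect and the soy effect against Soy-20% + SAA differed in the test of the difference itself for 7 genes, by -1.03 (Hal), -0.76 (Uroc1), -0.73 (Amdhd1), -1.23 (Aass), -0.37 (Aldh7a1), -1.08 (Dhtkd1) and -0.50 (Gcdh) on the log2 scale. The uneven Soy-20% + SAA libraries enter this contrast, and the values of Amdhd1 and Dhtkd1 were not called without them. The casein diets also lowered total protein further than the soy diets did.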

How the results depend on the processing

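The 8 casein calls were kept under each alternative but the requirement of a log2 difference of at least 1, which left 4. That requirement left 3 of the 7 differences between casein and soy, and 0 called genes of the 8 in both soy comparisons, in Cas-20% against Soy-20% or Soy-20% + SAA, and in Cas-5% against Soy-10%. With the GC slope of each library as a covariate, 2 of the 8 were called in Soy-10% against Soy-20% + SAA, 0 in Cas-20% against Soy-20% + SAA and 1 in Cas-20% against Soy-20%. Without Soy-20% + SAA livers 3 to 6 the first 2 of these counts were 3 and 0. In Soy-20% against Soy-20% + SAA, DESeq2 and the fit on 30 livers each called 2, and that fit called 5 in Cas-20% against Soy-20% + SAA.

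Differences that changed sign were small and not called. With the GC covariate they were, against Soy-20% + SAA, Hal 0.01 and Dhtkd1 -0.17 in Soy-10%, Uroc1 0.01, Aass -0.19 and Gcdh 0.05 in Soy-20%, and Ftcd 0.01, Aldh7a1 0.09 and Gcdh 0.05 in Cas-20%. Without Soy-20% + SAA livers 3 to 6 they were Hal 0.07 and Dhtkd1 -0.26 in Soy-10%, Uroc1 0.03, Aass -0.14, Aldh7a1 0.01, Dhtkd1 -0.01 and Gcdh 0.05 in Soy-20%, and Ftcd 0.08, Aldh7a1 0.17 and Gcdh 0.10 in Cas-20%. Amdhd1 was at -0.001 in Soy-10% against Soy-20% with no filter. The call of Ftcd in Soy-10% against Soy-20% was lost in the fit on 30 livers (-0.34, adjusted p = 0.155), and the difference between casein and soy was called for Ftcd with the GC covariate (-0.52, adjusted p = 0.0286). The cause was not tested.

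With 1 liver left out at a time, the number called of the 8 stayed at 8 for casein and for any difference among the 5 diets and at 7 for the difference between casein and soy. It ran from 3 to 5 in Soy-10% against Soy-20% + SAA, 2 to 3 against Soy-20%, 0 to 2 in Soy-20% against Soy-20% + SAA, 0 to 3 and 1 to 3 in Cas-20% against Soy-20% + SAA and Soy-20%, and 6 to 7 in Cas-5% against Soy-10%. Signs changed for Aass (-0.08 to 0.08) in Soy-10% against Soy-20% + SAA, Amdhd1 (-0.04 to 0.05) in Soy-10% against Soy-20%, Aldh7a1 (-0.05 to 0.02) and Gcdh (-0.09 to 0.02) in Cas-20% against Soy-20% + SAA, and Gcdh (-0.01 to 0.09) in Cas-20% against Soy-20%. Among the neighbours they changed for Hnmt (-0.23 to 0.09) and Slc3a2 (-0.04 to 0.08) against Soy-20% + SAA and for Slc7a2 (-0.05 to 0.12) and Hykk (-0.01 to 0.08) against Soy-20%.

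Whether same-numbered livers shared more than a number cannot be told from these values. By comparison, 0 to 2 of 6 pairs correlated above 0.1, and 0 to 5 of 12 livers correlated best with their own number. The 5 were in Soy-10% against Soy-20% + SAA. With the replicate block, 8 of the 8 genes were called for casein, 5 and 2 in Soy-10% against Soy-20% + SAA and Soy-20%, 0 in Soy-20% against Soy-20% + SAA, 2 and 1 in Cas-20% against Soy-20% + SAA and Soy-20%, 6 in Cas-5% against Soy-10%, 7 for the difference between casein and soy and 8 over the 5 diets. Aldh7a1 in Soy-10% against Soy-20% (adjusted p = 0.0711), Aass in Cas-20% against Soy-20% + SAA (0.053) and Uroc1 in Cas-20% against Soy-20% (0.0896) were not called with the block, and Aass in Soy-10% against Soy-20% + SAA changed sign (0.03). The block gave 141 calls over all genes in Cas-20% against Soy-20% + SAA and 190 against Soy-20%.

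Counts over all genes moved by more than 1.5 times as follows. A log2 difference of at least 1 left 420 of 3008 for casein, 308 of 2035 and 27 of 103 in Soy-10% against Soy-20% + SAA and Soy-20%, 57 of 291 and 45 of 319 in Cas-20% against Soy-20% + SAA and Soy-20%, 105 of 1292 in Cas-5% against Soy-10% and 285 of 1089 for the difference between casein and soy. The GC covariate gave 297 in Soy-10% against Soy-20% + SAA, 9 and 75 in Cas-20% against Soy-20% + SAA and Soy-20%, 614 for the difference and 3545 (in place of 5450) over the 5 diets, and leaving out livers 3 to 6 gave 317, 3 (Soy-20% + SAA), 296 and 3433. DESeq2 gave 217 in Soy-10% against Soy-20% and 1108 and 606 in Cas-20% against Soy-20% + SAA and Soy-20%. The fit on 30 livers gave 3077 and 62 in Soy-10% against Soy-20% + SAA and Soy-20%, and 2331 in Cas-20% against Soy-20% + SAA. With 1 liver left out, counts in Soy-10% against Soy-20% + SAA were lowest at 1219 (Soy-20% + SAA liver 5 left out) and highest at 3119 (liver 1). They ran from 50 (without Soy-10% liver 5) to 146 in Soy-10% against Soy-20%, from 0 to 1587 (without Soy-20% + SAA liver 1) in Soy-20% against Soy-20% + SAA, from 9 to 1817 (without Soy-20% + SAA livers 6 and 1) in Cas-20% against Soy-20% + SAA, from 160 (without Soy-20% liver 4) to 442 in Cas-20% against Soy-20%, and from 719 to 1941 (without Soy-20% + SAA livers 4 and 1) for the difference. In Soy-20% against Soy-20% + SAA, 1 call became 873 with DESeq2, 1793 in the fit on 30 livers, 2 with RLE scaling or no filter, and 0 with the GC covariate or without livers 3 to 6.

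Of the histidine neighbours called, a log2 difference of at least 1 left 7 of 12 for casein, 1 of 6 against Soy-20% + SAA and 0 of 3 against Soy-20%, and of the lysine neighbours 3 of 13, 2 of 13 and 0 of 1. The fit on 30 livers called 11 and 1 histidine neighbours in the soy comparisons, and DESeq2 2 lysine neighbours against Soy-20%. Against Soy-20% + SAA, 2 lysine neighbours were called with the GC covariate and 2 without livers 3 to 6. With 1 liver left out these counts ran from 12 to 15 and 11 to 14 for casein, and from 6 to 10 (histidine) and 6 to 15 (lysine) against Soy-20% + SAA. The replicate block left them within 1 of the main counts.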
